A study of Mus musculus with 24 samples.

Results

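The comparison described here is an interaction: the change that loss of Prkar1a brought to the adrenal of XX mice, minus the change it brought to the adrenal of gonadectomised XY mice (GDX). It asks which knockout responses remain particular to XX glands when the XY mice have no testes. The 16 arrays of 4 groups that the comparison names were taken from the 24 arrays of the series. These groups are WT XX, knockout (KO) XX, WT GDX and KO GDX, with 4 arrays each, which the labels call biological replicates. The 8 arrays of intact XY mice enter no test of the interaction, and their values are given beside it only for orientation.

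RNA came from whole adrenal glands of mice aged 7 months, of mixed background (sv129 with C57Bl/6), and XY mice of the GDX groups had lacked their testes for the last 2 months. KO mice of both sexes carried Prkar1a fl/fl, cre/+ and mTmG/mTmG, that is, both alleles floxed, 1 copy of Cre placed in the Cyp11b2 locus, and a fluorescent reporter. Cre therefore acts in cells that use the aldosterone synthase locus and in cells that descend from them. The control genotypes were not matched between the sexes. All 4 WT XX mice carried Prkar1a fl/+, cre/+ and mTmG/mTmG. Of the WT GDX mice, that of array 1 carried no floxed allele and no Cre (Prkar1a +/+, +/+, mTmG/mTmG), that of array 2 Cre without a floxed allele (Prkar1a +/+, cre/+, mTmG/+), that of array 3 the same with mTmG/mTmG, and that of array 4 the genotype of the WT XX mice. Intact WT XY mice carried Prkar1a fl/fl and mTmG/mTmG without Cre. Sex and control genotype are thus partly confounded in the interaction and cannot be told apart from these 16 arrays alone.

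Prkar1a encodes the type I alpha regulatory subunit that keeps protein kinase A (PKA) inactive until cyclic AMP binds, so its loss releases the catalytic subunits. In the adrenal cortex PKA carries the ACTH signal that drives glucocorticoid synthesis in the zona fasciculata. The outer zona glomerulosa makes aldosterone under angiotensin II and potassium, and WNT signals from the capsule and outer cortex maintain its identity. Steroid synthesis consumes cholesterol, which cells take up from lipoproteins or make from acetyl-CoA through the mevalonate pathway under the transcription factor SREBP2.

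Values are log2 array signals, on which a difference of 1 is a doubling, and differences are given ± their standard error from limma. A gene was called where the Benjamini-Hochberg adjusted p of limma over the 14411 genes tested was under 0.05. Array medians lay between 5.20 and 5.29, and of 32202 probe sets 17165 to 17779 exceeded 5. Arrays of the same group correlated across genes with r of 0.989 to 0.995. The first principal component of the 16 arrays carried 42.4% of the variance. The KO XX arrays lay between 26.8 and 35.2 on it, apart from all others, which lay between -24.1 and 7.53.

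Prkar1a itself fell in both sexes, by amounts that the interaction did not separate. It read 8.43, 8.53, 8.54 and 8.52 on the 4 WT XX arrays and 7.30, 7.00, 7.35 and 6.67 on the KO XX arrays. On the WT GDX arrays it read 8.94, 8.92, 8.73 and 8.59, and on the KO GDX arrays 7.99, 7.66, 7.30 and 7.45. KO and WT arrays did not overlap in either sex. The change was -1.43 ± 0.15 in XX (adjusted p 1.14e-05) and -1.20 in GDX (adjusted p 0.00142). The interaction was -0.23 ± 0.21, with a 95% interval from -0.69 to 0.22 (adjusted p 0.616). In RNA of whole glands, fewer cells of a type and less RNA per cell cannot be told apart, here or in any result that follows. Cyp11b2, the aldosterone synthase gene whose locus holds the Cre, fell in XX, with a change of -2.30 ± 0.38 (adjusted p 0.000369), while its change in GDX was -0.27 (adjusted p 0.755). Its interaction of -2.03 ± 0.54 missed the threshold (adjusted p 0.0565; 0.0499 with the GDX block defined below). Cyp11b2 read 9.71 on WT XX array 1 and 10.97 to 11.11 on the other three, against 7.47 to 9.10 in KO XX. In WT GDX the array from the mouse without Cre was the highest, at 11.42 against 9.80 to 10.46, and KO GDX spanned 9.89 to 10.55.

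The interaction was called for 408 genes, 2.83% of those tested: 181 (1.26%) in which the knockout change was higher in XX than in GDX and 227 (1.58%) in which it was lower. At an unadjusted p under 0.05 there were 2660. The knockout change by itself was called for 4474 genes in XX (31%) and for 468 in GDX (3.25%), in 2 comparisons that share no array. Of the 408, the knockout was called in XX alone for 357, in both the same way for 38, in both opposite ways for 3, in GDX alone for 8 and in neither for 2. The estimated change was larger in size in XX for 389 of the 408 and larger in GDX for 19. Arrays of KO and WT did not overlap for 389 of the 408 in XX, against 32.8% of all genes tested. In GDX the count was 80, against 9.62%. The 408 were called from these same arrays, so the call itself favours arrays that do not overlap.

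Most genes called in XX were not shown to differ between the sexes. For 2387 of the 4474 (53.4%) the 95% interval of the interaction spanned 0, and 398 (8.9%) were called in the interaction. Over the 181 genes with a higher change in XX, the median change was 0.75 in XX and 0.10 in GDX. Over the 227 with a lower change it was -0.73 in XX and -0.07 in GDX. These medians describe genes chosen by this same contrast. The intact XY arrays did not enter that choice except through the filter on dim genes. There the median changes of the same genes were 0.05 and -0.05, beside -0.01 over all genes tested. The intact XY estimate lay nearer to the GDX than to the XX value for 391 of the 408 (95.8%). The choice itself favoured such a count, because the XX change was the larger in size for 389 of the 408. The intact XY change was called for 5 of the 408, and for 16 of all genes (0.111%; 0.0694% higher and 0.0416% lower in KO).

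**Figure D1:**
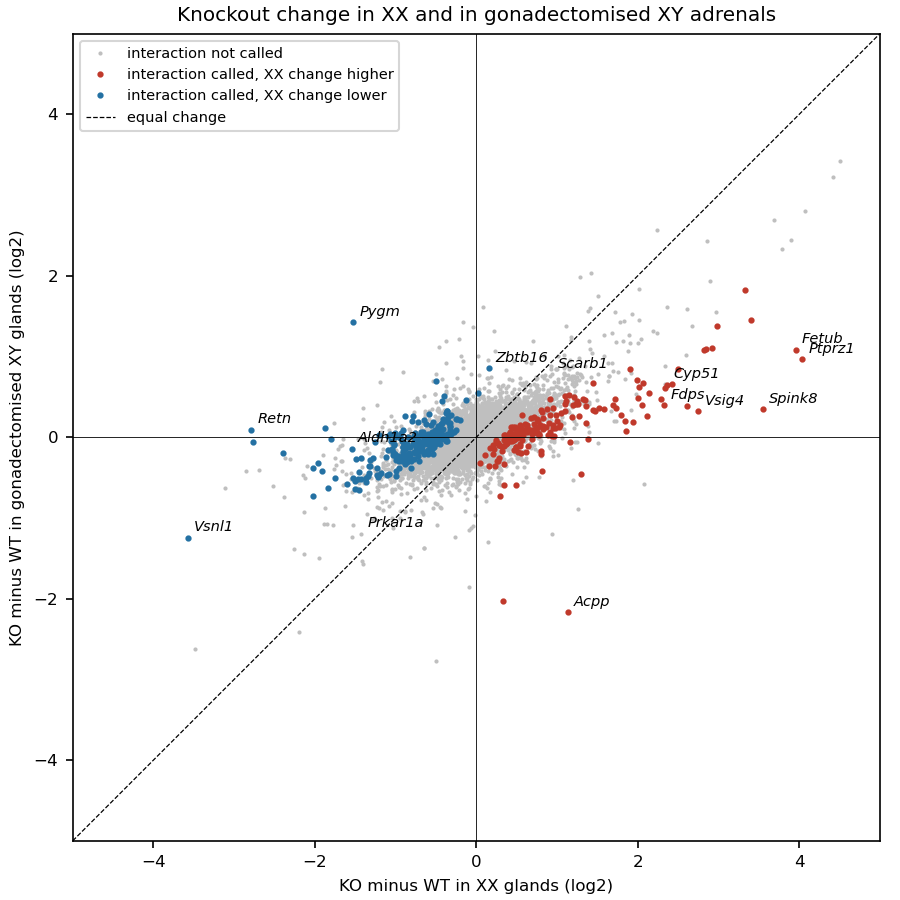
Knockout change in XX glands (horizontal, log2) against the change in gonadectomised XY glands (vertical, log2), 1 point per gene for the 14411 genes tested; red and blue points are the 181 and 227 genes whose interaction was called higher and lower, and the dashed line marks equal change. The coloured points spread along the horizontal axis, and Acpp and Pygm lie where the signs differ.

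Those counts moved with single arrays and with the choice of GDX controls. The 408 became 223, 199, 152 and 271 without WT XX array 1, 2, 3 or 4, and 259, 240 and 185 without KO XX array 1, 2 or 4. They became 184 and 170 without WT GDX array 2 or 4, and 163 and 233 without KO GDX array 1 or 3. With WT GDX array 4 as the sole GDX control, the 1 array that matches the WT XX genotype, 195 genes were called, 102 of them among the 408. The 468 GDX calls became 176 and 160 without WT GDX array 2 or 3, 1039, 291, 85 and 110 without KO GDX array 1, 2, 3 or 4, and 16 with WT GDX array 4 as the sole control. Of 50 called genes named below, 19 kept their interaction call with that sole control, 24 with the mean of the adipocyte markers as a covariate and 9 with the mean of the medulla markers as a covariate. The call held under all 29 other settings for 7 of them: Acpp, Retn, Car3, Scd1, Aldh1a2, Tmem47 and Olfml1. The 50 are the called genes picked by the naming rules. For other called list members named below, such as Agtr1a and Pde7a, calls under each setting are not given gene by gene. Arrays of the same replicate number in WT GDX and KO GDX tended to deviate together (r of 0.12 to 0.243), which does not establish a pairing. A fit with that number as a block over the 8 GDX arrays was added after the data had been seen and is named the GDX block. It gave 604 interaction, 4670 XX and 543 GDX calls. Its values are given beside the named genes and list counts reported below whose call it changed.

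The interaction is also the difference between the XX minus GDX contrast in KO glands and the same contrast in WT glands. The KO contrast was called for 2391 genes (16.6%; 7.9% higher in XX) and the WT contrast for 101 (0.701%). Of the 408 interaction genes, 379 were called in the KO contrast, 13 in the WT contrast, 5 in both and 21 in neither. Acpp, Aldh1a2 and Tenm3, described below, are among those that also differed between WT XX and WT GDX glands.

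In cholesterol synthesis 13 of 16 tested enzymes rose more in XX than in GDX. These are 4 of 6 enzymes from acetyl-CoA to squalene and 9 of 10 from squalene to cholesterol, against 1.26% of all genes in that direction. The interaction estimate was above 0 for all 16, between 0.33 and 1.93, with a median of 1.17 beside -0.01 over all genes. All 16 enzymes were called higher in KO XX than in WT XX, against 13.2% of all genes, and 4 were called higher in KO GDX than in WT GDX, against 1.84%. With the GDX block the last count was 2 of the 6 early and 6 of the 10 late enzymes, the added ones being Fdft1, Cyp51, Hsd17b7 and Sc5d. The median change of the 6 early enzymes was 1.42 in XX, 0.35 in GDX and 0.36 in intact XY. For the 10 late enzymes it was 1.47, 0.56 and 0.39.

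Among the early enzymes, Hmgcs1 makes HMG-CoA, the substrate of the rate-limiting reductase. It read 9.83, 10.21, 10.06 and 10.40 in WT XX and 11.42, 11.59, 11.41 and 11.60 in KO XX, and from 10.03 to 10.93 in WT GDX and 10.14 to 11.00 in KO GDX. The KO XX arrays lay above all others, and the GDX groups overlapped over nearly their whole range. The change was 1.38 ± 0.19 in XX and -0.03 in GDX, and the interaction was 1.41 ± 0.27 (adjusted p 0.017). Fdps, which builds the farnesyl unit, read 8.15, 8.63, 8.55 and 9.14 in WT XX and 10.60, 11.08, 11.12 and 10.96 in KO XX. In GDX it read 8.67, 9.41, 8.80 and 9.68 in WT and 8.90, 10.08, 9.31 and 9.86 in KO, so that KO and WT overlapped there and not in XX. Its interaction was 1.93 ± 0.39 (adjusted p 0.021). Fdft1, which joins farnesyl units into squalene, had an interaction of 1.15 ± 0.23 (adjusted p 0.0198), and Mvd, which makes the isoprenoid unit from mevalonate, one of 1.14 ± 0.24 (adjusted p 0.0247). The kinases Mvk and Pmvk rose in XX by 0.74 and 0.80, but their interactions of 0.36 ± 0.11 and 1.04 ± 0.31 were not called (adjusted p 0.0909 and 0.0851).

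Among the late enzymes, Sqle, which oxidises squalene in a rate-limiting step, read 7.23, 7.57, 7.64 and 7.75 in WT XX and 9.99, 10.07, 10.02 and 10.10 in KO XX. In GDX it read 7.49, 8.14, 7.70 and 7.98 in WT and 8.11, 9.11, 8.58 and 8.88 in KO. It rose in both sexes, by 2.50 ± 0.18 in XX and by 0.84 in GDX (adjusted p 0.0221), and the KO XX arrays lay above every KO GDX array. The interaction of Sqle was 1.65 ± 0.26 (adjusted p 0.0109). Cyp51, the lanosterol demethylase, read 7.70, 8.20, 7.95 and 7.97 in WT XX against 10.08, 10.48, 10.27 and 10.45 in KO XX. Its WT GDX arrays read 7.70, 8.57, 7.95 and 8.38 and its KO GDX arrays 8.40, 9.33, 8.56 and 8.91, which overlap. The interaction of Cyp51 was 1.72 ± 0.29 (adjusted p 0.0129). Hsd17b7, a sterol ketone reductase, had the highest interaction of the late enzymes, 1.77 ± 0.43 (adjusted p 0.0399), and its call was kept on leaving out 5 of the 16 arrays in turn (largest adjusted p 0.0846) and lost without the filter on dim genes (largest adjusted p over all settings 0.254). Lss, which closes the sterol rings, rose by 1.99 in XX and by 0.71 in GDX, with an interaction of 1.28 ± 0.23 (adjusted p 0.0156). The interactions of Tm7sf2, Msmo1, Nsdhl, Ebp and Sc5d, which carry out intermediate steps, lay between 0.80 and 1.23 and were called. Dhcr7, which acts last on the way from 7-dehydrocholesterol, rose in both sexes, by 1.10 in XX and 0.78 in GDX (adjusted p 0.00271), and its interaction of 0.33 ± 0.15 was not called (adjusted p 0.272).

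**Figure D2:**
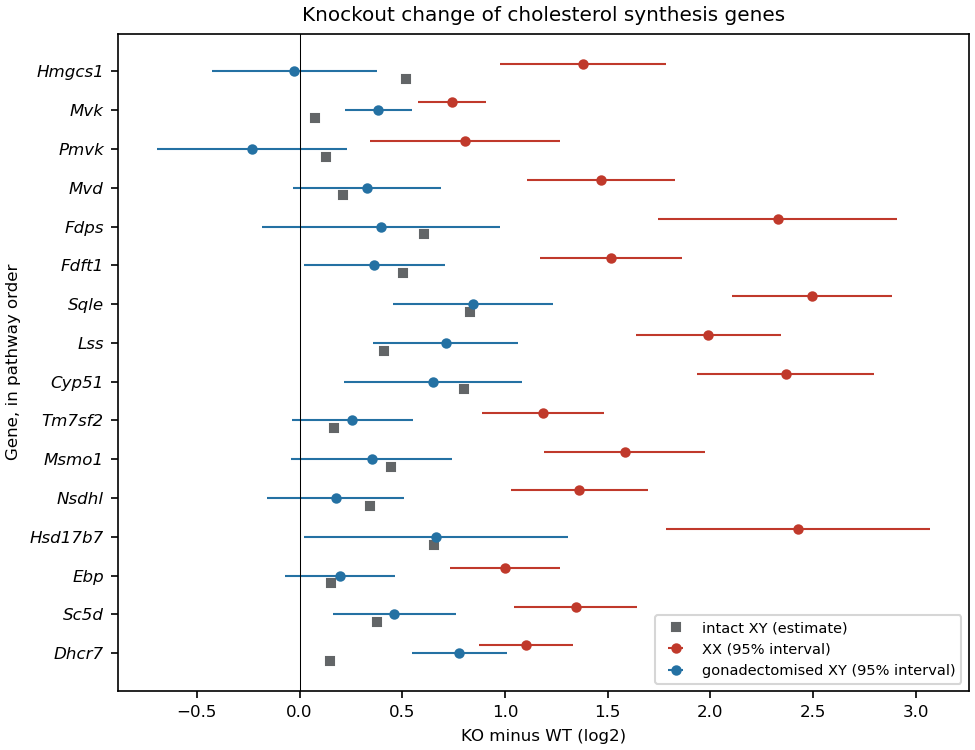
Knockout change (log2) of the 16 tested cholesterol synthesis genes in pathway order, with 95% intervals in XX (red) and gonadectomised XY (blue) and the estimate in intact XY (grey squares). Every red point lies to the right of its blue point, and the intervals of Dhcr7 in XX and GDX overlap.

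The number of calls moved with the arrays and covariates used, while the direction did not. The sign stayed positive for all 16 genes under the 29 other settings tried. The count of 13 called became 7 without KO XX array 4, WT GDX array 4 or KO GDX array 1, and 15 without WT GDX array 1. It became 6 with WT GDX array 4 as the sole control, 5 with the mean of the adipocyte markers as a covariate and 0 with the mean of the medulla markers as a covariate. The median interaction was then 1.26, 1.19 and 0.83. The sole-control fit holds fewer arrays, and the medulla fit called 46 genes in all. The lost calls therefore cannot show a dependence on control genotype.

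Promoter sequence is shown for 4 of these enzymes because they moved together and because SREBP2 acts at such promoters with the CCAAT-binding factor NF-Y. Letters were read from RefSeq's table for GRCm38.p6, which matched 13 of the 16 genes and 11195 of the 14411 tested. Each line gives the 250 bases before the start site, 5′ to 3′ on the gene's strand: chr1:169969206-169969455 (minus) for Hsd17b7, chr5:4104698-4104947 (minus) for Cyp51, chr13:119690101-119690350 (plus) for Hmgcs1 and chr10:76531355-76531604 (plus) for Lss. Capitals mark CCAAT or its complement ATTGG and, in Hmgcs1, the match to TCACNCCAC, a form of the sterol regulatory element.
Hsd17b7: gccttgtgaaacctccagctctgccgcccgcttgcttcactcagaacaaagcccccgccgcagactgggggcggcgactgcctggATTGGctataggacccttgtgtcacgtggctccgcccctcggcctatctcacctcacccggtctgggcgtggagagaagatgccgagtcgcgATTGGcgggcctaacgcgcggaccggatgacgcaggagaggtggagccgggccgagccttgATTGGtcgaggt
Cyp51: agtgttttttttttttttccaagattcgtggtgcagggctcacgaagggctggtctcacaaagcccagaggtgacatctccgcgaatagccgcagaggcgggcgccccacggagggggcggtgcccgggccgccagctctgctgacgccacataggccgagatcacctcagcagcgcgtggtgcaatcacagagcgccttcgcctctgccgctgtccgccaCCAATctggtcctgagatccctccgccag
Hmgcs1: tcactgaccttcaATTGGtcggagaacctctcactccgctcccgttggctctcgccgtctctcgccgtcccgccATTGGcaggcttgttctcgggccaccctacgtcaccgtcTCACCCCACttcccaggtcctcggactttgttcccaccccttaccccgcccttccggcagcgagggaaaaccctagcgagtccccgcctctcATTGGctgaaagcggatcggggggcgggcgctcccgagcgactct
Lss: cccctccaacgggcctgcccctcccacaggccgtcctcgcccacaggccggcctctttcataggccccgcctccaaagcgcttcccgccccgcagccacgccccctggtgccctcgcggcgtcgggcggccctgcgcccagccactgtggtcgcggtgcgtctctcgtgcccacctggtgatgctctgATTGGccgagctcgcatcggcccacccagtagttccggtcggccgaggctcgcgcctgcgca

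A CCAAT match on either strand stood in these windows for 13 of 13 matched enzymes, against 39.0% of the 11195 tested genes matched. A gene counted where any of its listed promoters held a match. Over all 408 genes the share was near the background, at 44.4% of 142 matched genes with a higher and 33.5% of 167 with a lower change in XX. TCACNCCAC stood before 1 of the 13 enzymes, Hmgcs1 (7.69%), against 1.21% of all. The cyclic AMP response element TGACGTCA stood before 0 of 13, against 2.8%, and its half-site TGACG, which that element contains, before 5 (38.5%), against 28.5%. For the nuclear receptor half-site AGGTCA the count was 2 (15.4%, against 13.2%), and for the androgen and glucocorticoid receptor half-site GGAACA it was 1 (7.69%, against 13.3%). Such matches describe letters in a window and show no binding.

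Of 10 tested genes that bring in, store or sense cholesterol, 0 were called in the interaction by limma, against 2.83% of all genes. Their median interaction was -0.04. In a list this short a count of 0 or 1 cannot be told apart from that share, here and in the lists below. Scarb1, the HDL receptor that delivers cholesterol esters to steroid-making cells, rose in both sexes, by 0.93 in XX and 0.78 in GDX (adjusted p 0.0015). It read 11.79, 11.77, 11.74 and 11.81 in WT XX and 12.77, 12.78, 12.54 and 12.77 in KO XX, and 11.51, 11.56, 11.53 and 11.82 in WT GDX and 12.05, 12.46, 12.53 and 12.49 in KO GDX. KO and WT did not overlap in either sex, and the interaction of 0.16 ± 0.14 had a 95% interval from -0.15 to 0.46. Stard4, a sterol carrier, rose in XX by 1.01 and changed by -0.22 in GDX, with an interaction of 1.23 ± 0.38 (adjusted p 0.0944). Srebf2, which encodes SREBP2, had one of 0.47 ± 0.15 (adjusted p 0.101). Abca1, which exports cholesterol, fell in XX, with a change of -0.75 and had an interaction of -0.79 ± 0.22 (adjusted p 0.0726; 0.0359 with the GDX block).

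Of 12 tested genes of the steroidogenic core, the steroid-making enzymes and their partners, 1 was called in the interaction, against 2.83% of all genes. The median was 0.05. Star, which moves cholesterol into mitochondria, had an interaction of -0.01 ± 0.06, Cyp11a1, which cleaves its side chain, one of 0.09 ± 0.07, and Cyp11b1, the corticosterone-making enzyme of the fasciculata, one of -0.12 ± 0.07. The called gene was Fdx1, the ferredoxin that passes electrons to the mitochondrial P450 enzymes. Fdx1 rose in both sexes, by 1.25 ± 0.11 in XX and 0.45 in GDX (adjusted p 0.0378), with an interaction of 0.80 ± 0.15 (adjusted p 0.0174). Mrap, the accessory protein of the ACTH receptor, also rose in both, by 1.21 and 0.76, and its interaction of 0.45 ± 0.14 was not called (adjusted p 0.102; 0.0307 with the GDX block). Cyp17a1, which opens the way to androgens and is low in the adult mouse adrenal, had an interaction of 1.73 ± 0.92 (adjusted p 0.34; 0.00578 with the GDX block). On WT GDX array 1 and KO GDX array 1 it read 7.64 and 6.81, against 3.91 to 4.89 on the other six GDX arrays.

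Of 12 tested zona glomerulosa markers, 8 fell more in XX than in GDX, against 1.58% of all genes, and all 12 estimates were below 0, with a median of -0.89. In XX 11 of the 12 were called lower, against 17.8% of all genes, and in GDX 4, against 1.41%. With the GDX block the interaction count was 9, Cyp11b2 being added, and the GDX count was 5, Cacna1h being added. The median change was -1.07 in XX, -0.33 in GDX and -0.29 in intact XY. Vsnl1, a calcium sensor of glomerulosa cells, read 9.53, 10.19, 9.64 and 9.94 in WT XX and 5.50, 7.29, 6.11 and 6.11 in KO XX. In GDX it read 9.96, 9.66, 9.76 and 9.42 in WT and 9.06, 7.74, 8.85 and 8.19 in KO. KO and WT arrays did not overlap in either sex, and the KO XX arrays lay below every KO GDX array. Vsnl1 fell in both sexes, with changes of -3.58 ± 0.33 in XX and -1.24 in GDX, at the edge of the threshold (adjusted p 0.05 after rounding), and its interaction was -2.33 ± 0.46 (adjusted p 0.0198). In intact XY its change was -1.42 and not called (adjusted p 0.265).

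The potassium channel gene Kcnk9, which helps set the resting voltage of glomerulosa cells, read 8.99, 9.60, 9.51 and 9.67 in WT XX and 7.68, 7.66, 7.73 and 7.34 in KO XX. It read 9.66, 9.31, 9.26 and 9.34 in WT GDX and 9.10, 8.56, 8.92 and 8.48 in KO GDX, lower than WT on all arrays in both sexes. Its interaction was -1.22 ± 0.23 (adjusted p 0.0165). The calcium channel gene Cacna1h had an interaction of -0.92 ± 0.20, the angiotensin II receptor genes Agtr1a and Agtr1b of -0.55 ± 0.14 and -0.94 ± 0.23, the calcium pump gene Atp2b3 of -0.84 ± 0.19 and the endocytic adaptor gene Dab2 of -0.57 ± 0.12, all called. Hsd3b6, the glomerulosa form of 3 beta-hydroxysteroid dehydrogenase, was a shared fall and not a called interaction: its change was -3.48 in XX and -2.62 in GDX (adjusted p 0.00482), with an interaction of -0.86 ± 0.58 (adjusted p 0.463). The count of 8 became 4 without WT XX array 2, 3 without WT XX array 3 and 5 without WT XX array 4. Without KO XX array 1, 2 or 4 it became 5, 5 and 2, without WT GDX array 2 or 4 it became 4 and 3, and without KO GDX array 1, 3 or 4 it became 4, 4 and 5. With WT GDX array 4 as the sole control it was 1 and with the medulla markers as a covariate 0, where the median was -0.88 and -0.60.

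**Figure D3:**
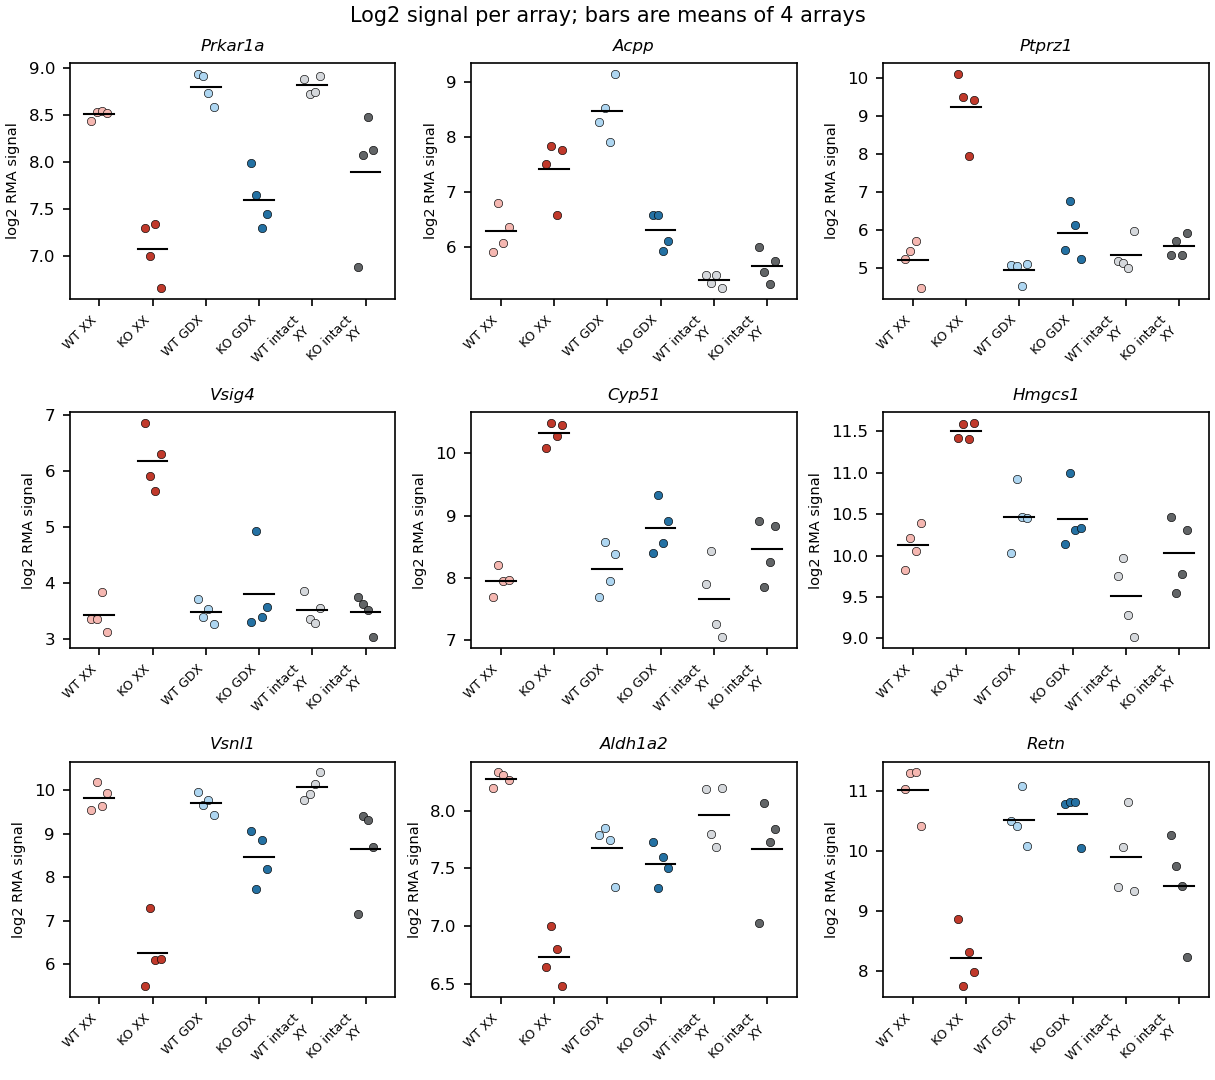
Log2 signal on each array for 9 genes in WT and KO glands of XX, gonadectomised XY (GDX) and intact XY mice; bars are means of 4 arrays. For Ptprz1, Vsig4, Cyp51 and Hmgcs1 the KO XX arrays stand above the other groups, for Aldh1a2 below them, and for Vsnl1 and Retn below the WT XX and both GDX groups but overlapping KO intact XY; for Acpp the WT GDX arrays are the highest.

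WNT signalling genes were among the lower ones. Of 9 tested canonical targets 4 had a called interaction, all lower in XX, and of 11 ligands and secreted modulators 3 did, also lower, against 1.58% of all genes in that direction. In XX 7 of the 9 targets were called lower, against 17.8% of all genes, and in GDX 0 were called by limma, against 1.41%. Wnt4, the ligand made in the outer cortex and itself a glomerulosa marker, read 9.18, 9.26, 8.96 and 9.68 in WT XX and 8.09, 8.08, 8.70 and 8.17 in KO XX, which do not overlap. In GDX it read 9.13, 8.71, 8.80 and 8.73 in WT and 8.97, 8.71, 9.00 and 8.69 in KO, which do. The interaction of Wnt4 was -1.01 ± 0.23 (adjusted p 0.0308). Rspo3, the capsular R-spondin that amplifies WNT signals, fell in XX, with a change of -1.24 ± 0.13 and changed by -0.47 in GDX (adjusted p 0.0605; 0.0292 with the GDX block), with an interaction of -0.77 ± 0.18 (adjusted p 0.0389). Dkk3, a secreted relative of the Dickkopf inhibitors, had one of -0.65 ± 0.15 (adjusted p 0.0389).

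Among the targets, the feedback inhibitors Axin2, Nkd1 and Apcdd1 had interactions of -0.60 ± 0.13, -0.78 ± 0.15 and -0.88 ± 0.21, and the transcription factor gene Lef1 one of -0.76 ± 0.18. Nkd1 read 7.58, 7.54, 7.48 and 7.46 in WT XX, 6.45, 6.61, 6.50 and 6.90 in KO XX, 7.74, 7.54, 7.59 and 7.44 in WT GDX and 7.74, 7.39, 7.46 and 7.25 in KO GDX, so that KO XX alone stood apart. A dimmer second probe set of Axin2, with a mean of 5.56, gave an interaction of -0.02. The call of Nkd1 was kept when any single array was left out, and lost with the sole control and with either covariate (largest adjusted p 0.105). Those of Axin2, Wnt4, Lef1, Apcdd1, Rspo3 and Dkk3 were kept on leaving out 8, 8, 5, 5, 5 and 4 of the 16 arrays in turn, with a largest adjusted p between 0.0632 and 0.0812. The count of 4 targets became 2 without WT XX array 1, 3 or 4, KO XX array 4 or KO GDX array 4, and 1 without WT XX array 2, KO XX array 1, WT GDX array 2 or 4 or KO GDX array 1 or 3. The count of 3 ligands and modulators became 1 without any 1 WT XX array, WT GDX array 3 or KO GDX array 3, and 0 without KO XX array 1, 2 or 4, WT GDX array 2 or 4 or KO GDX array 1. With WT GDX array 4 as the sole control, 0 of the 9 targets and 0 of the 11 ligands and modulators were called by limma, with medians of -0.53 and -0.32. Those medians were -0.60 and -0.13 with all 4 WT GDX arrays. With the medulla markers as a covariate 0 and 0 were called by limma, with medians of -0.41 and -0.29, and with the adipocyte markers 1 and 1, with medians of -0.62 and -0.11. With the replicate number as a block over all 16 arrays the calls of Lef1 and Dkk3 were lost (adjusted p 0.0666 and 0.0534).

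Of 12 tested capsule and mesenchymal genes, 4 had a called interaction, all lower, against 1.58% of all genes, with a median of -0.56. The mean level of the list showed the same split, at 7.72 to 7.84 in WT XX and 7.01 to 7.18 in KO XX, against 7.57 to 7.75 in WT GDX and 7.44 to 7.73 in KO GDX. Pdgfra, the PDGF receptor of mesenchymal cells, read 9.53, 9.05, 9.57 and 9.47 in WT XX and 8.42, 8.08, 8.61 and 8.11 in KO XX. Its GDX arrays read 9.04, 8.75, 8.90 and 8.87 in WT and 8.93, 9.20, 8.72 and 8.78 in KO and overlapped. The interaction of Pdgfra was -1.11 ± 0.20 (adjusted p 0.0156). Lum, a matrix proteoglycan, had one of -2.00 ± 0.47 (adjusted p 0.0385), and KO GDX array 2 read 8.18 against 6.20 to 6.81 on the other three. Ptch1, the hedgehog receptor and target, had one of -0.50 ± 0.11 (adjusted p 0.0318). Matrix genes gave 0 called of 12 in the interaction by limma, with a median of -0.81, and KO GDX array 2 was high here too: the mean over the list was 9.88 on it, against at most 8.47 on the other 15 arrays. The count of 4 capsule genes became 2 without KO XX array 1 or 2 and 1 without WT XX array 1 or 3, KO XX array 4, WT GDX array 2 or 4 or KO GDX array 1. With WT GDX array 4 as the sole control it was 0 by limma, with a median of -0.69, and with the medulla or adipocyte markers as a covariate it was 0 and 1, with medians of -0.38 and -0.55. The call of Lum was kept on leaving out 7 of the 16 arrays in turn (largest adjusted p 0.0758) and that of Pdgfra on leaving out each; both were lost with the sole control and with the medulla covariate, and Lum also with the adipocyte covariate.

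**Figure D4:**
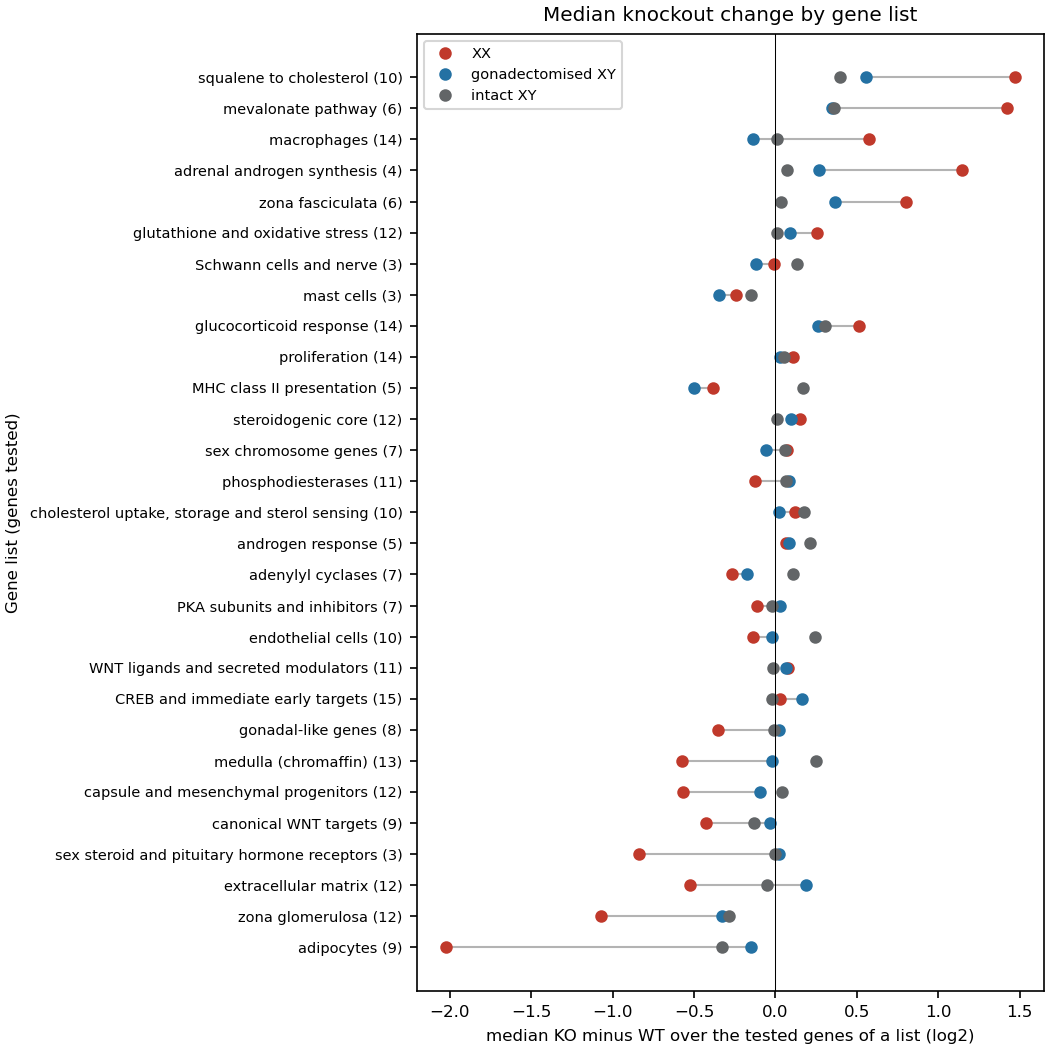
Median knockout change (log2) over the tested genes of each list in XX (red), gonadectomised XY (blue) and intact XY (grey), with the number of genes in parentheses. Cholesterol synthesis lists lie farthest to the right in XX, and adipocyte and zona glomerulosa lists farthest to the left.

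Within the PKA pathway, of 7 tested subunits and inhibitors, Prkar1b, the neuronal-type regulatory subunit, was the one called, against 2.83% of all genes. It read 7.34, 7.26, 7.38 and 7.41 in WT XX, 6.97, 6.77, 6.77 and 6.52 in KO XX, 7.75, 7.08, 7.03 and 7.10 in WT GDX and 7.70, 7.37, 7.60 and 7.43 in KO GDX. KO XX lay below every other group, and the interaction was -0.88 ± 0.20 (adjusted p 0.0303). Prkaca and Prkacb, the catalytic subunits, had interactions of 0.15 ± 0.09 and -0.11 ± 0.09, and Prkar2b, a type II regulatory subunit, one of 0.28 ± 0.21. Of 11 tested phosphodiesterases, which degrade cyclic nucleotides, 3 were called, against 2.83% of all genes. Pde8a, a cyclic AMP-specific form, was higher, at 0.64 ± 0.14 (adjusted p 0.0318). Pde2a, a form of the glomerulosa that cyclic GMP activates, was lower, at -0.62 ± 0.13 (adjusted p 0.0224), and so was Pde7a, at -0.58 ± 0.14 (adjusted p 0.0446). Pde2a read 10.45 to 10.52 in WT XX and 9.62 to 10.17 in KO XX, and in GDX 10.40 to 10.51 and 10.38 to 10.50. Of 7 adenylyl cyclases and 15 CREB and immediate early target genes, 0 and 0 were called in the interaction by limma, with medians of -0.06 and -0.26. The count of 3 phosphodiesterases became 1 without WT XX array 2, 3 or 4, KO XX array 1 or 4, WT GDX array 2 or KO GDX array 1, 3 or 4, and 0 with WT GDX array 4 as the sole control or with the medulla covariate, and 2 with the adipocyte covariate. Calls of Prkar1b and Pde8a were kept on leaving out 7 of the 16 arrays in turn each, with a largest adjusted p of 0.068.

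The highest interactions of all called genes belonged to Acpp, Spink8, Ptprz1, Fetub, Vsig4, Rsph4a, Tgm3, Fdps, Klra2 and Rhcg, from 3.30 down to 1.82. Ptprz1, a receptor tyrosine phosphatase best known from glia, read 5.22, 5.45, 5.69 and 4.47 in WT XX and 10.11, 9.51, 7.94 and 9.43 in KO XX. In GDX it read 5.07, 5.05, 4.52 and 5.09 in WT and 5.48, 6.76, 6.14 and 5.24 in KO. All 8 KO arrays lay above the WT arrays of their sex, by a wide margin in XX and a narrow one in GDX. The rise was 4.04 ± 0.41 in XX and the change 0.97 in GDX (adjusted p 0.205), with an interaction of 3.07 ± 0.58 (adjusted p 0.0169). Spink8, a serine protease inhibitor, read 4.07 to 4.66 in WT XX and 8.78, 6.97, 6.66 and 9.44 in KO XX, against 4.07 to 4.95 in WT GDX and 4.59 to 5.10 in KO GDX. Its interaction was 3.21 ± 0.65 (adjusted p 0.0212), measured from a level near or under the 5 taken as readable. Rsph4a, a radial spoke protein of motile cilia, read 5.53 to 6.20 in WT XX, 8.21 to 8.87 in KO XX and 6.55 to 6.76 in WT GDX. Its KO GDX arrays read 6.74, 6.83, 6.74 and 8.06, so that array 4 stood near the KO XX level, and the interaction was 2.23 ± 0.35 (adjusted p 0.0109).

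Rhcg, an ammonium transporter, and Tgm3, a transglutaminase of epithelia, rose in both sexes. Rhcg rose by 2.92 ± 0.22 in XX and 1.10 in GDX (adjusted p 0.0162), with an interaction of 1.82 ± 0.31 (adjusted p 0.0139). Tgm3 read 5.14 to 5.38 in WT XX, 8.13 to 8.93 in KO XX and 5.02 to 5.16 in WT GDX, and 5.25, 6.40, 7.26 and 7.35 in KO GDX, a wide spread that began just above the WT level. Its interaction was 1.95 ± 0.47 (adjusted p 0.0391). Fetub, a secreted protease inhibitor known from liver, had an interaction of 2.87 ± 0.66 (adjusted p 0.033), but KO XX and KO GDX ended at similar levels: 10.28 to 11.17 and 8.69 to 10.53. Its WT glands lay at 6.12 to 7.73 in XX and 7.92 to 9.82 in GDX, a contrast of -1.90 (adjusted p 0.0819). Klra2, a lectin-like receptor, had an interaction of 1.82 ± 0.35 (adjusted p 0.017). The calls of Fetub and Tgm3 were kept on leaving out 7 and 5 of the 16 arrays in turn (largest adjusted p 0.0703 and 0.0776), and those of Acpp, Spink8, Ptprz1, Vsig4, Rsph4a, Fdps, Klra2 and Rhcg on leaving out each. With WT GDX array 4 as the sole control the calls of Spink8, Ptprz1, Vsig4, Rsph4a, Rhcg, Fetub and Tgm3 were lost, with the medulla covariate those of Spink8, Ptprz1, Vsig4, Rsph4a, Fdps, Fetub and Tgm3, and with the adipocyte covariate those of Fdps, Klra2, Rhcg, Fetub and Tgm3. That of Tgm3 was lost also with the replicate number as a block over all 16 arrays (adjusted p 0.053).

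Vsig4, a complement receptor of resident macrophages, read 3.37, 3.36, 3.84 and 3.12 in WT XX and 6.85, 5.91, 5.64 and 6.29 in KO XX. It read 3.71, 3.39, 3.54 and 3.27 in WT GDX and 3.31, 4.93, 3.39 and 3.58 in KO GDX, where array 2 alone was raised. The interaction was 2.42 ± 0.44 (adjusted p 0.0156). Vsig4, Mmp27 and 1810008I18Rik passed the filter through KO XX arrays only, so that a difference was built into their selection and its size rests on levels too dim to read elsewhere. The same holds for Spink8, which outside KO XX exceeded 5 only on KO GDX array 3 (5.1) and KO intact XY array 4 (5.09). Without its KO XX arrays it falls short of the 4 arrays that the filter asks for. Other called genes were not checked in this second way. Of 14 tested macrophage markers 0 were called in the interaction by limma, against 2.83% of all genes. The estimates of all 14 were above 0, with a median of 0.77. The mean over these markers was 6.82 to 7.13 in WT XX, 7.22 to 8.24 in KO XX, 7.13 to 7.58 in WT GDX and 6.86 to 7.85 in KO GDX. Their part in the result for Vsig4 was not tested. Cd163, the haemoglobin scavenger receptor, had an interaction of 0.98 ± 0.44 (adjusted p 0.253) and Lyz2, lysozyme, one of 1.28 ± 0.43 (adjusted p 0.126; 0.0348 with the GDX block). Without KO GDX array 2, 2 of the 14 were called, and with the GDX block 2, Lyz2 and the lysosomal glycoprotein gene Cd68.

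The lowest interactions were those of Pygm, Retn, Lgals12, Vsnl1, Car3, Lum, Scd1, Adipoq, Tenm3 and Aldh1a2, from -2.95 to -1.40. Several are genes of fat cells: Retn encodes resistin, Adipoq adiponectin, Lgals12 a galectin of lipid droplets, and Car3 and Scd1, a carbonic anhydrase and a fatty acid desaturase, are abundant in fat. Retn read 11.04, 11.29, 11.31 and 10.42 in WT XX and 8.86, 7.75, 8.32 and 7.98 in KO XX. In GDX it read 10.50, 10.42, 11.08 and 10.09 in WT and 10.78, 10.82, 10.81 and 10.05 in KO, with full overlap. It fell in XX, with a change of -2.79 ± 0.27, changed by 0.09 in GDX and had an interaction of -2.88 ± 0.38 (adjusted p 0.00431). Car3 read 11.69 to 12.25 in WT XX and 9.17 to 10.02 in KO XX, against 11.63 to 12.73 in WT GDX and 11.59 to 12.11 in KO GDX. Its interaction was -2.21 ± 0.31 (adjusted p 0.0073), and that of Scd1 was -1.78 ± 0.35 (adjusted p 0.0182). Of 9 tested adipocyte markers 4 had a called interaction, all lower, against 1.58% of all genes, with a median of -1.64. With the GDX block the count was 5, Fabp4 being added. Without WT XX array 2 or 3 or KO XX array 4 the count was 2. It was 6 with WT GDX array 4 as the sole control, with a median of -2.51, and 2 with the medulla covariate.

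Whole glands can carry surrounding fat, and the adipocyte markers as a list moved with the groups. Their mean was 8.51 to 9.85 in WT XX and 7.28 to 8.03 in KO XX, without overlap, and 8.57 to 10.57 in WT GDX and 8.96 to 9.61 in KO GDX. Their part in the interaction of the other genes was not tested apart from a fit with this mean as a covariate, in which 290 genes were called, 143 of them among the 408. Plin1 and Lep, the lipid droplet coat and leptin genes, are markers of the same cells and had interactions of -0.10 ± 0.26 and 0.47 ± 0.76, not called (adjusted p 0.888 and 0.801). Chromaffin cell markers of the medulla, within the gland, also moved: 0 of 13 were called in the interaction by limma, but all estimates were below 0, with a median of -0.52, and 9 of the 13 were called lower in KO XX, against 17.8% of all genes. With the GDX block 11 of the 13 were called lower in KO XX. The mean of the medulla markers was 9.30 to 9.67 in WT XX and 8.67 to 9.22 in KO XX. In GDX it was 9.21 to 9.96 in WT and 9.43 to 9.85 in KO. With that mean as a covariate 46 genes were called in the interaction, 39 of them among the 408. KO XX array 1, at 9.22, lay just above WT GDX array 3, at 9.21. The part of the medulla in the interaction was not tested beyond this fit. Lymphocyte and red cell markers gave 1 and 0 tested genes, and of 10 endothelial markers 0 were called in the interaction by limma, with a median of -0.12.

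**Figure D5:**
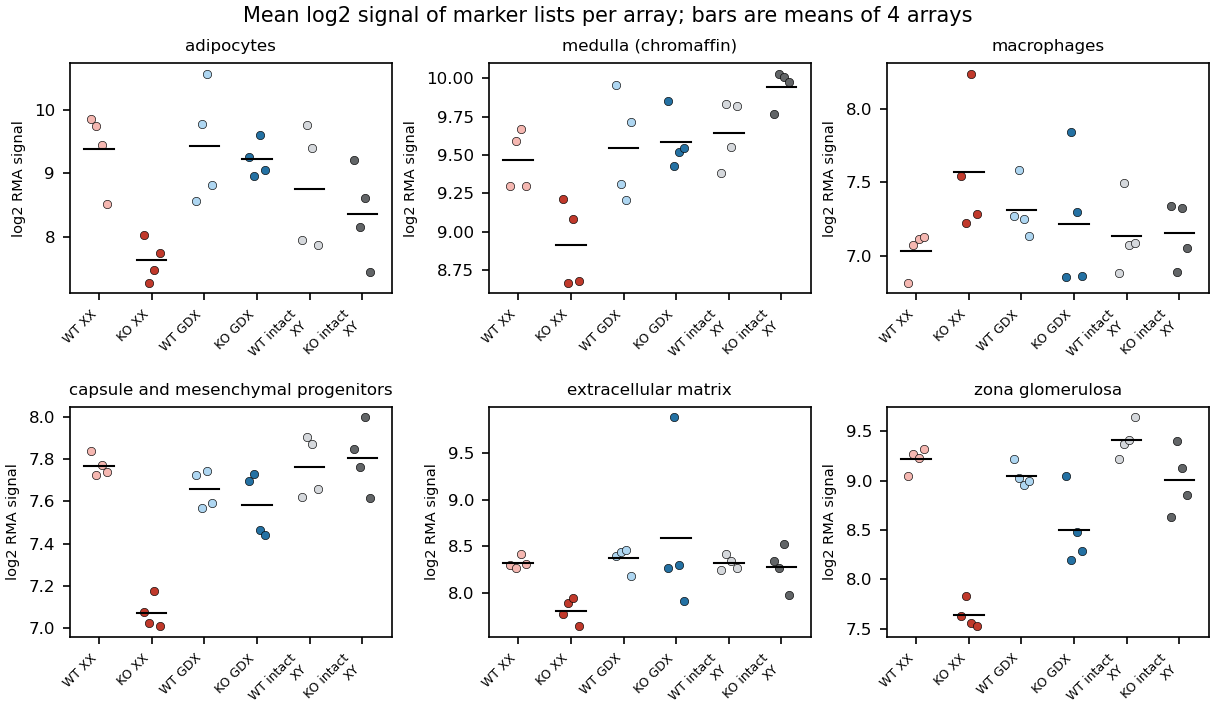
Mean log2 signal over the tested genes of 6 marker lists on each array, for WT and KO glands of XX, gonadectomised XY (GDX) and intact XY mice; bars are means of 4 arrays. The KO XX arrays lie below WT XX for adipocyte, medulla, capsule, matrix and glomerulosa lists and above it for macrophages, and KO GDX array 2 stands high for the matrix list.

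Other genes with a low interaction were not markers of fat. Aldh1a2, which makes retinoic acid, read 8.19, 8.33, 8.31 and 8.26 in WT XX and 6.65, 7.00, 6.80 and 6.48 in KO XX, and 7.79, 7.85, 7.74 and 7.34 in WT GDX and 7.73, 7.33, 7.59 and 7.50 in KO GDX. KO XX lay below and WT XX above every GDX array. It fell in XX, with a change of -1.54 ± 0.12, changed by -0.14 in GDX, and had an interaction of -1.40 ± 0.17 (adjusted p 0.00306). The WT contrast of XX minus GDX was 0.59 (adjusted p 0.0352) and the KO contrast -0.81 (adjusted p 0.000737). Tenm3, a teneurin adhesion protein, behaved alike, with an interaction of -1.64 ± 0.28 (adjusted p 0.0133) and contrasts of 0.92 in WT (adjusted p 0.0445) and -0.72 in KO (adjusted p 0.0216). Pygm, the muscle form of glycogen phosphorylase, had the lowest estimate, -2.95 ± 0.73 (adjusted p 0.0451). Its WT GDX arrays were spread from 7.10 to 9.89, and the call was kept on leaving out 3 of the 16 arrays in turn (largest adjusted p 0.0966). Calls of Adipoq and Lgals12 were kept on leaving out 3 and 13 of them (largest adjusted p 0.0985 and 0.0524; for Lgals12 the call was lost without WT XX array 2 or 3 or KO XX array 4). Retn, Car3, Scd1, Aldh1a2, Tenm3 and Vsnl1 kept theirs on leaving out each, but Vsnl1 lost it with WT GDX array 4 as the sole control, and Vsnl1 and Tenm3 with the medulla covariate. Pygm and Adipoq lost theirs without the filter on dim genes and with either covariate, and Lgals12 with either covariate. Adipoq and Lgals12 are themselves among the markers averaged in the adipocyte covariate, which limits the meaning of that loss.

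For 269 of the 408 genes the GDX change was not only smaller but bounded, its whole 95% interval lying within 0.5 of 0 while the XX change was called. Of these 107 rose and 162 fell in XX. In the first set the median change was 0.55 in XX, 0.03 in GDX and 0.00 in intact XY, and in the second -0.65, -0.05 and -0.03. The XX and GDX medians restate the rule that chose these genes. Over all genes tested the median intact XY change was -0.01. The largest bounded rises were those of Hmgcs1, Mmp27, Apmap, F5 and Ebp. Apmap, a membrane protein first described in adipocytes, read 8.31 to 8.47 in WT XX and 9.29 to 9.59 in KO XX, and 8.39 to 9.22 and 8.57 to 8.87 in WT and KO GDX, with an interaction of 0.88 ± 0.21 (adjusted p 0.0376). F5, coagulation factor V, read 4.60 to 4.88 in WT XX and 5.53 to 6.20 in KO XX, and 4.74 to 4.94 and 4.80 to 5.12 in GDX, with an interaction of 0.89 ± 0.17 (adjusted p 0.017). Mmp27, a matrix metalloproteinase, read 4.48 to 4.98 in WT XX and 5.33 to 6.34 in KO XX. In GDX glands of both genotypes it read 4.30 to 4.68. The GDX arrays of F5 and Mmp27 thus lay near or under the 5 taken as readable.

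The largest bounded falls were those of Aldh1a2, Tmem47, Olfml1, Pdgfra and Mir493. Tmem47, a membrane protein of cell junctions, read 10.53, 10.68, 10.70 and 11.08 in WT XX and 9.40, 9.57, 9.57 and 9.45 in KO XX, and in GDX 10.13, 10.48, 10.21 and 9.74 in WT and 10.32, 9.95, 10.03 and 10.02 in KO. Its KO XX arrays lay below all others, with an interaction of -1.19 ± 0.20 (adjusted p 0.0129). Olfml1, a secreted protein, read 7.05 to 7.44 in WT XX, 5.85 to 6.10 in KO XX, 6.73 to 6.99 in WT GDX and 6.51 to 7.36 in KO GDX, with an interaction of -1.23 ± 0.20 (adjusted p 0.0114). Mir493, a microRNA precursor gene, had one of -1.10 ± 0.28 (adjusted p 0.0459). Its call and that of Apmap were kept on leaving out 3 and 5 of the 16 arrays in turn (largest adjusted p 0.0972 and 0.0762), those of Ebp and Mmp27 on leaving out 7 and 11 (0.0639 and 0.0592), and those of Tmem47, Olfml1 and F5 on leaving out each. The calls of F5, Mmp27, Ebp and Hmgcs1 were lost with the sole control and with either covariate, that of Apmap with the medulla covariate and that of Mir493 with either covariate.

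In 11 genes the knockout was called in GDX and was larger there than in XX or opposite to it. Acpp, prostatic acid phosphatase, was the most extreme and also had the highest interaction of all. It read 5.90, 6.79, 6.07 and 6.36 in WT XX and 7.50, 7.82, 6.57 and 7.76 in KO XX, and 8.27, 8.52, 7.91 and 9.14 in WT GDX and 6.58, 6.57, 5.92 and 6.10 in KO GDX. KO was below WT on all GDX arrays, while in XX the groups overlapped by 1 array. Acpp rose by 1.13 ± 0.29 in XX (adjusted p 0.00874) and fell in GDX, where its change was -2.17 (adjusted p 0.00233), giving an interaction of 3.30 ± 0.42 (adjusted p 0.00306). In WT glands it was lower in XX than in GDX by -2.18 (adjusted p 0.00184), and in KO glands higher by 1.12 (adjusted p 0.018). Intact XY glands read 5.25 to 5.48 in WT and 5.31 to 5.99 in KO, under all WT GDX arrays. Over the 5 tested genes of the androgen response list, which holds Acpp, the median interaction was -0.05, and Acpp was the one called.

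Slc24a4, a sodium, potassium and calcium exchanger, fell in XX, with a change of -0.50 ± 0.17 (adjusted p 0.0394) and rose in GDX by 0.70 (adjusted p 0.0393). It read 6.62 to 6.71 in WT XX and 6.07 to 6.37 in KO XX, and 6.22, 5.53, 6.20 and 6.29 in WT GDX and 6.71, 6.27, 6.94 and 7.14 in KO GDX, with an interaction of -1.20 ± 0.24 (adjusted p 0.0224). H2aj, a histone variant gene, read 5.57 to 5.97 in WT XX, 5.71 to 6.30 in KO XX, 6.06 to 6.29 in WT GDX and 5.40 to 5.78 in KO GDX. It rose in XX by 0.35 (adjusted p 0.0433; 0.0653 with the GDX block) and fell in GDX, with an interaction of 0.94 ± 0.17 (adjusted p 0.0165). Zbtb16, a glucocorticoid-induced transcription factor gene, rose in GDX by 0.86 (adjusted p 0.00435) and changed by 0.16 in XX (adjusted p 0.39). Its WT GDX arrays read 7.30, 7.32, 7.43 and 7.64 and its KO GDX arrays 8.11, 8.43, 8.19 and 8.41, while in XX it read 7.62 to 8.11 and 7.69 to 8.19. Its interaction was -0.71 ± 0.18 (adjusted p 0.0494), and in intact XY it rose by 0.81 (adjusted p 0.0103 in the fit over 24 arrays). Trim34a, of a family of ubiquitin ligases, had an interaction of 1.02 ± 0.26 (adjusted p 0.0457). Over the 14 tested genes of the glucocorticoid response list, the median interaction was 0.08, and Zbtb16 was the one called. Calls of Zbtb16 and Trim34a were kept on leaving out 2 and 3 of the 16 arrays in turn (largest adjusted p 0.0999 and 0.0972), and those of Acpp, Slc24a4 and H2aj on leaving out each. Those of Slc24a4, H2aj and Zbtb16 were lost with WT GDX array 4 as the sole control and with either covariate, that of Trim34a with the sole control and with the medulla covariate, and that of Zbtb16 with the replicate number as a block over all 16 arrays (adjusted p 0.0781).

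Against these stand the responses common to both sexes. Knockout was called the same way in XX and GDX for 378 genes, 8.45% of those called in XX and 80.8% of those called in GDX, and opposite ways for 3. For 163 of them, 84 rises and 79 falls, the 95% interval of the interaction lay wholly within 0.5 of 0. Their median change in intact XY was 0.06 for the rises and -0.07 for the falls. The largest shared rises were those of Susd3, Prrg3, Scarb1, Gem and Rab2b. Prrg3, a membrane protein with a Gla domain, read 6.84, 6.94, 7.07 and 6.89 in WT XX and 8.07, 7.61, 7.93 and 7.85 in KO XX, and 7.37, 6.80, 7.13 and 7.42 in WT GDX and 8.23, 7.82, 7.96 and 8.26 in KO GDX. It rose by 0.93 in XX and 0.89 in GDX, with an interaction of 0.04 ± 0.19 and a 95% interval from -0.37 to 0.45, and it rose by 0.99 in intact XY (adjusted p 0.0183). Gem, a small GTPase that restrains calcium channels, rose by 0.84 and 0.74, with an interaction of 0.10 ± 0.17. The largest shared falls, Usp13, a deubiquitinase, Cdc14a, a phosphatase, Adamts5, a protease of aggrecan, Cep290, a ciliary protein, and the microRNA precursor gene Mir5125, were between -0.51 and -0.63 in XX and between -0.51 and -0.65 in GDX. The GDX change of Cep290 was not called with the GDX block (adjusted p 0.0557), nor that of Adamts5 with a block over all 16 arrays (adjusted p 0.0536). The small interactions here, such as those of Prrg3, Usp13 and Cep290, turned sign under 6, 7 and 6 of the 29 other settings.

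Lists for other functions held 0 or 1 interaction call each, which in lists this short cannot be told apart from the 2.83% of all genes. Of 12 genes of glutathione and oxidative stress, Gsr, glutathione reductase, was called, at 0.75 ± 0.16 (adjusted p 0.0244), with changes of 0.64 in XX and -0.11 in GDX. Its call was lost without WT XX array 3 or WT GDX array 2, with WT GDX array 4 as the sole control and with either covariate (largest adjusted p 0.182). Of 14 proliferation genes 0 were called by limma, with a median of 0.07. With the GDX block the interaction was called for 1 of these, Ttk, and for 1 more gene each of the CREB target, matrix and androgen response lists, Pck1, Postn and Steap4. Akr1c18, a progesterone-degrading enzyme of the X-zone, the fetal-type inner zone, rose in XX by 1.67, with an interaction of 1.34 ± 0.44 that was not called (adjusted p 0.12). Its change was 0.33 in GDX, and it rose by 4.44 in intact XY (adjusted p 0.0103). The mean over the 2 tested X-zone genes, Akr1c18 and Thrb, was 10.43 to 10.91 in WT GDX and 5.87 to 6.57 in WT intact XY. It was 10.82 to 10.94 in KO GDX, 9.46 to 10.67 in WT XX and 10.79 to 10.91 in KO XX. WT GDX glands thus already lay near the level of both KO groups. Among mast cell genes, Hdc, which makes histamine, rose in both sexes, by 2.20 and 1.31, and Cpa3, a granule protease, fell in both, with changes of -1.54 and -1.24. Their interactions were 0.88 ± 0.34 and -0.30 ± 0.41 and were not called (adjusted p 0.18 and 0.757).

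The floxed Prkar1a locus and the Cre locus differ in genotype between the control groups, so their surroundings were examined. Of the 40 nearest tested genes around Prkar1a on chromosome 11, 1 was called in the interaction, Axin2, with a median over the 40 of -0.05. Around Cyp11b2 on chromosome 15, 1 of 40 was called, Kcnk9, with a median of -0.03. These interaction counts lie near the 2.83% of all genes. The knockout change was called in XX for 16 of the 40 around Prkar1a and 7 of the 40 around Cyp11b2, against 31% of all genes. In GDX it was called for 1 and 4, against 3.25%. The 4 around Cyp11b2 were Kcnk9, Chrac1, Ly6d and Top1mt, with GDX changes of -0.63, -0.26, -2.41 and 0.72. The cause of these changes was not tested. Sex chromosome genes checked the labels: of 7 tested, 0 were called in the interaction by limma, and Uty, on the Y chromosome, was lower in XX than in GDX by -5.07 in WT and -4.77 in KO glands.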

How the data were processed

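The deposited log2 values were made by the authors with RMA, per the submitters' processing notes; the software version and annotation were not given in the sources used here. They cover 32202 probe sets on 24 arrays, from 1.88 to 13.4. Of these probe sets 22943 had 1 gene symbol, 1731 several and 7528 none; each of 21957 genes was read from its brightest probe set with 1 symbol. Genes over 5 on at least 4 of the 24 arrays were tested, 14411 in all.

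Group means of the 16 arrays were fitted with limma 3.58.1 in R 4.3.3 (12 residual degrees of freedom), with Benjamini-Hochberg adjustment over all genes tested; the fit was tested on simulated data. Intact XY values come from a fit of all 24 arrays. Files give no depth, and 4 arrays a group limit the precision. The labels do not say from how many litters or days the mice came.

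Members and gene lists (32 lists, 327 symbols, 267 tested) were chosen with earlier results of these data known. Named genes, predicted symbols aside, are Prkar1a, Cyp11b2, the 10 highest and 10 lowest called interactions, the 5 largest rises and 5 largest falls in XX among called genes whose GDX interval lay within 0.5 of 0, the 5 largest interactions called in GDX and larger there or opposite, the 5 largest shared rises and 5 falls, up to 3 members of each list with the largest interaction in size, and called neighbours. Other list members named were chosen after their values were seen. Symbols not in the table were not analysed here. By the correlation of deviations from group means, replicate numbers appeared to pair WT GDX with KO GDX, where 4 of 4 same-number pairs exceeded 0.1 (0.12 to 0.243), but no other 2 groups: over all groups 7 of 24 pairs did, from -0.232. Different-number pairs of WT GDX and KO GDX reached 0.0582. In other groups such pairs reached 0.283 (WT XX array 1 with WT GDX array 3) and 0.268 (KO XX array 3 with KO GDX array 2). These correlations therefore do not establish a pairing. The labels give no source for this pairing, and a block over the GDX arrays alone was added after seeing the data.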

Additional observations from a re-analysis of the deposited data

Results flagged for a closer look

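The knockout change differed between XX and GDX, by limma's interaction, for 408 genes. Listed here are the called genes named in the report by a rule other than list membership. Called genes named through lists alone, such as Cyp51 and Wnt4, differed too and are given above. The change was higher in XX for Acpp (3.30), Spink8 (3.21), Ptprz1 (3.07), Fetub (2.87), Vsig4 (2.42), Rsph4a (2.23), Tgm3 (1.95), Fdps (1.93), Klra2 (1.82), Rhcg (1.82), Hmgcs1 (1.41), Mmp27 (1.22), Trim34a (1.02), H2aj (0.94), F5 (0.89), Apmap (0.88) and Ebp (0.80). It was lower in XX for Pygm (-2.95), Retn (-2.88), Lgals12 (-2.71), Vsnl1 (-2.33), Car3 (-2.21), Lum (-2.00), Scd1 (-1.78), Adipoq (-1.65), Tenm3 (-1.64), Aldh1a2 (-1.40), Olfml1 (-1.23), Kcnk9 (-1.22), Slc24a4 (-1.20), Tmem47 (-1.19), Pdgfra (-1.11), Mir493 (-1.10), Zbtb16 (-0.71) and Axin2 (-0.60). All are log2 differences.

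Single arrays stood apart from the other three of their group in 15 of 188 groups of 4 examined, where chance gives about 1 in 20. In WT XX these were array 1 for Cyp11b2 (9.71) and Adamts5 (7.08) and array 4 for Adipoq (7.90). In KO XX it was array 3 for Scarb1 (12.54). In WT GDX they were array 1 for Rsph4a (6.55), array 2 for Slc24a4 (5.53), array 3 for Ptprz1 (4.52) and Apmap (9.22), and array 4 for Scarb1 (11.82). In KO GDX they were array 1 for Apmap (8.57) and Scarb1 (12.05), array 2 for Vsig4 (4.93), and array 4 for Rsph4a (8.06), Retn (10.05) and Adipoq (7.73).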

How the results depend on the processing

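The 408 interaction calls became 236 without the filter on dim genes, 713 with array weights, 195 with WT GDX array 4 as the sole control and 46 with the medulla markers as a covariate, and ranged from 152 to 535 when single arrays were left out. The 4474 XX calls became 2326 and 2130 with the medulla and the adipocyte markers as a covariate, and ranged from 3636 to 4580 over single arrays left out. The 468 GDX calls became 1055 with array weights and 16 with WT GDX array 4 as the sole control, and ranged from 85 to 1039. The replicate block over all 16 arrays gave 370, 4434 and 365 calls and lost the interaction calls of Tgm3, Zbtb16, Dkk3 and Lef1. The block over the GDX arrays, where the numbers appeared to pair, was chosen after seeing the data. It gave 604, 4670 and 543 calls and lost no called interaction among the 50 named. Among the 50 called interactions named and those of Prkar1a and Cyp11b2, 1 turned direction: that of Prkar1a was 0.046 with the medulla covariate. Of 224 uncalled interactions of named genes and list members, 99 turned sign under at least 1 setting, among them Prrg3 and Star. Of 836 list medians under other settings, 786 moved by less than the spread between replicates. The cause of these shifts was not tested. Leave-one-out and single-control fits also hold fewer arrays, and the part of that was not tested either. Dim genes limit the rest: 21 of the 408 had all arrays of at least 1 group at or under 5.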
